A study of Mus musculus with 4 samples.

Results

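The nuclear genes of oxidative phosphorylation were followed through cultured mouse pancreatic islets as 86 genes of the 32285 in the feature lists. They were chosen by symbol alone: names beginning with Ndufa, Ndufb, Ndufc, Ndufs, Ndufv, Uqcr, Cox4, Cox5, Cox6, Cox7, Cox8 or Atp5, with Cyc1 and Sdha to Sdhd, and without Ndufaf genes or names ending in -ps or os. They comprise 36 genes of complex I (7 nuclear core and 29 accessory subunits), 4 of complex II, 9 of complex III, 19 of complex IV and 17 of complex V (5 of the F1 head and 12 of the stalks and the membrane part). The last is Cox7a2l, which is no core subunit but helps complexes III and IV to join.

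The islets came from 8-week-old male wild-type C57BL6J mice. They were cultured for 24 h with 1 mM imeglimin, an oral glucose-lowering drug, or with DMSO as vehicle, in medium holding glucose at 3.9 or at 11.1 mM, and were dispersed with Accutase for 10x Genomics 3′ single-cell libraries of about 10000 loaded cells. There was 1 library per condition, so no difference has a replicate check and no test between conditions was possible. Intervals given with values are exact 95% intervals for counting error only, and they say nothing about how far a second culture would differ.

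Complexes I to IV pass electrons from NADH and succinate to oxygen and move protons out of the mitochondrial matrix, and complex V uses the returning protons to make ATP. In the beta cell the ATP made from glucose closes potassium channels and so starts insulin release. The mitochondrial genome encodes a small set of the subunits, and the genes described here supply the rest from the nucleus. Several complex IV genes exist as a widely expressed form and a form typical of heart and muscle, such as Cox6a1 and Cox6a2.

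After filtering, the libraries held 7166 (vehicle, 3.9 mM), 8755 (imeglimin, 3.9 mM), 7444 (vehicle, 11.1 mM) and 8427 cells (imeglimin, 11.1 mM), with 90066780 to 105649755 molecules (UMIs) in all and medians of 8832 to 12035 UMIs per cell. Each pair of libraries shared 19 to 34 cell barcodes. Clusters were named from marker lists and gave 4370 to 5450 beta-like, 639 to 1082 alpha-like and 242 to 592 delta-like cells per library, with smaller endothelial-like and stromal-like classes. In all, 9 clusters with 5854 of the 31792 cells stayed unnamed and out of every class (19.6%, 24.1%, 15.4% and 14.0% of the libraries in that order). One of 1363 cells held few UMIs, 4 clusters of 1347, 724, 677 and 409 cells mixed markers of endocrine types, and the others were led by Cd74, by Ppy and Pyy, by Vip and by Ccr7. The cells left out differed by library. Of the 677 cells 637 came from vehicle and of the 409 cells 384 from imeglimin at 3.9 mM. Of the 1347 cells 702 came from vehicle and 573 from imeglimin at 11.1 mM. Each of these clusters scored highest for beta-cell markers. Clustering left the members out, and the beta-like cells of the 4 libraries lay largely in different clusters: 1 cluster held 86.3% of those from vehicle at 3.9 mM, and another held 56.5% of those from imeglimin at 11.1 mM. Insulin transcripts (Ins1 and Ins2) took 10.8% of beta-like UMIs with vehicle and 20.3% with imeglimin at 3.9 mM, and 34.2% and 28.9% at 11.1 mM. Malat1, a nuclear RNA whose share can move with RNA quality, took 1.52%, 2.41%, 1.13% and 2.06% in the same order, and its part in the results was not tested.

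The promoters of 68 of the 86 genes had an entry in RefSeq (mouse build GRCm38.p6). The 4 below are printed 5′ to 3′ as the 250 bases before the gene's start, with matches to the motifs searched in capitals. Cox6a1 is shown as the widely expressed partner of Cox6a2, Cox7a1 as a muscle form with almost no UMIs here, and Ndufa3 and Atp5k as 2 of the 6 genes with the highest ratio to vehicle under imeglimin at 11.1 mM.
Cox6a1, chr5:115348959-115349208, minus strand: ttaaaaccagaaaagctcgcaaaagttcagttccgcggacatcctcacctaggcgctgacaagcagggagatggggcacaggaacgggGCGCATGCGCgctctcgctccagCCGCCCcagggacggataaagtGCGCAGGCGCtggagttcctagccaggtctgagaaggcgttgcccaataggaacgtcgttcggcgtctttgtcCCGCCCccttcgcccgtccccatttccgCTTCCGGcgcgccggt
Cox7a1, chr7:30183921-30184170, plus strand: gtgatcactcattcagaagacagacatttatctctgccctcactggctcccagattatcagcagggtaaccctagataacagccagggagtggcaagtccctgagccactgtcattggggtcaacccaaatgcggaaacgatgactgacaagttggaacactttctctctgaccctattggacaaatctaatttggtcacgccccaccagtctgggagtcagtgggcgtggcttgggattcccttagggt
Ndufa3, chr7:3617123-3617372, plus strand: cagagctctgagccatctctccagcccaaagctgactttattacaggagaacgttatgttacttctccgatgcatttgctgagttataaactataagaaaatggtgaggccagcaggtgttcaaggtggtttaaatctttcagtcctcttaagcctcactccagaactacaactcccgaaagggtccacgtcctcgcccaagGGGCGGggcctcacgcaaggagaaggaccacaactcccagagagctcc
Atp5k, chr5:108434400-108434649, minus strand: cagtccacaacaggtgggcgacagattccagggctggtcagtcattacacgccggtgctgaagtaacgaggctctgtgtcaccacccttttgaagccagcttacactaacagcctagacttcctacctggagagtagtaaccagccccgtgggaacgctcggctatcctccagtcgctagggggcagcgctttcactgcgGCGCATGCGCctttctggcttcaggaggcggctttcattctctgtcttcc

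Motifs were searched on both strands in 300 bases, the 250 before the start and 50 after it. The NRF1 motif, GCGCA followed by any base and GCGC, was in 16 of the 68 promoters (23.5%) against 4.78% of all 27025 promoters in the table. The ETS motif CCGGAAG was in 16 (23.5% against 9.12%), the YY1 motif AAGATGGCG in 6 (8.82% against 1.49%), the Sp1 motif GGGCGG in 28 (41.2% against 35.9%) and the cyclic AMP response element TGACGTCA in 4 (5.88% against 1.88%). No member held the stress-response letters TGATGCAA, which 0.929% of all promoters held. The printed Cox6a1 window carried 2 NRF1, 2 Sp1 and 1 ETS match, the Ndufa3 window 1 Sp1 match and the Atp5k window 1 NRF1 match, while the Cox7a1 window had none of these letters. The median log2 ratio of imeglimin to vehicle at 11.1 mM in beta-like cells was 0.32 for the 16 genes with the NRF1 motif and 0.39 for the 48 compared genes without it.

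Imeglimin at 11.1 mM glucose was compared with vehicle at the same glucose in the summed UMIs of beta-like cells. Levels are UMIs per 1000000 of the class (CPM) after TMM scaling, which matches the bulk of genes between libraries. A gene was compared where it reached 20 CPM in either library, as 79 of the 86 did. With imeglimin, 11 of the 79 genes were at least 1.5-fold higher and 0 at least 1.5-fold lower, against 5.76% and 4.27% of all 5643 genes compared. No count here has a test behind it. Members above their vehicle level numbered 72 (67% of all genes were), and 63 lay above the median of all genes, which was 0.12 on the log2 scale. The members' median was 0.37. With plain totals 7 were higher and 0 lower (4.45% and 5.02% of all genes), and without hormone and mitochondrial transcripts 7 higher and 2 lower (2.09% and 8.86%). Between these scalings 14 of the 79 genes changed sign, so counts above or below vehicle hold for TMM scaling.

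**Figure D1:**
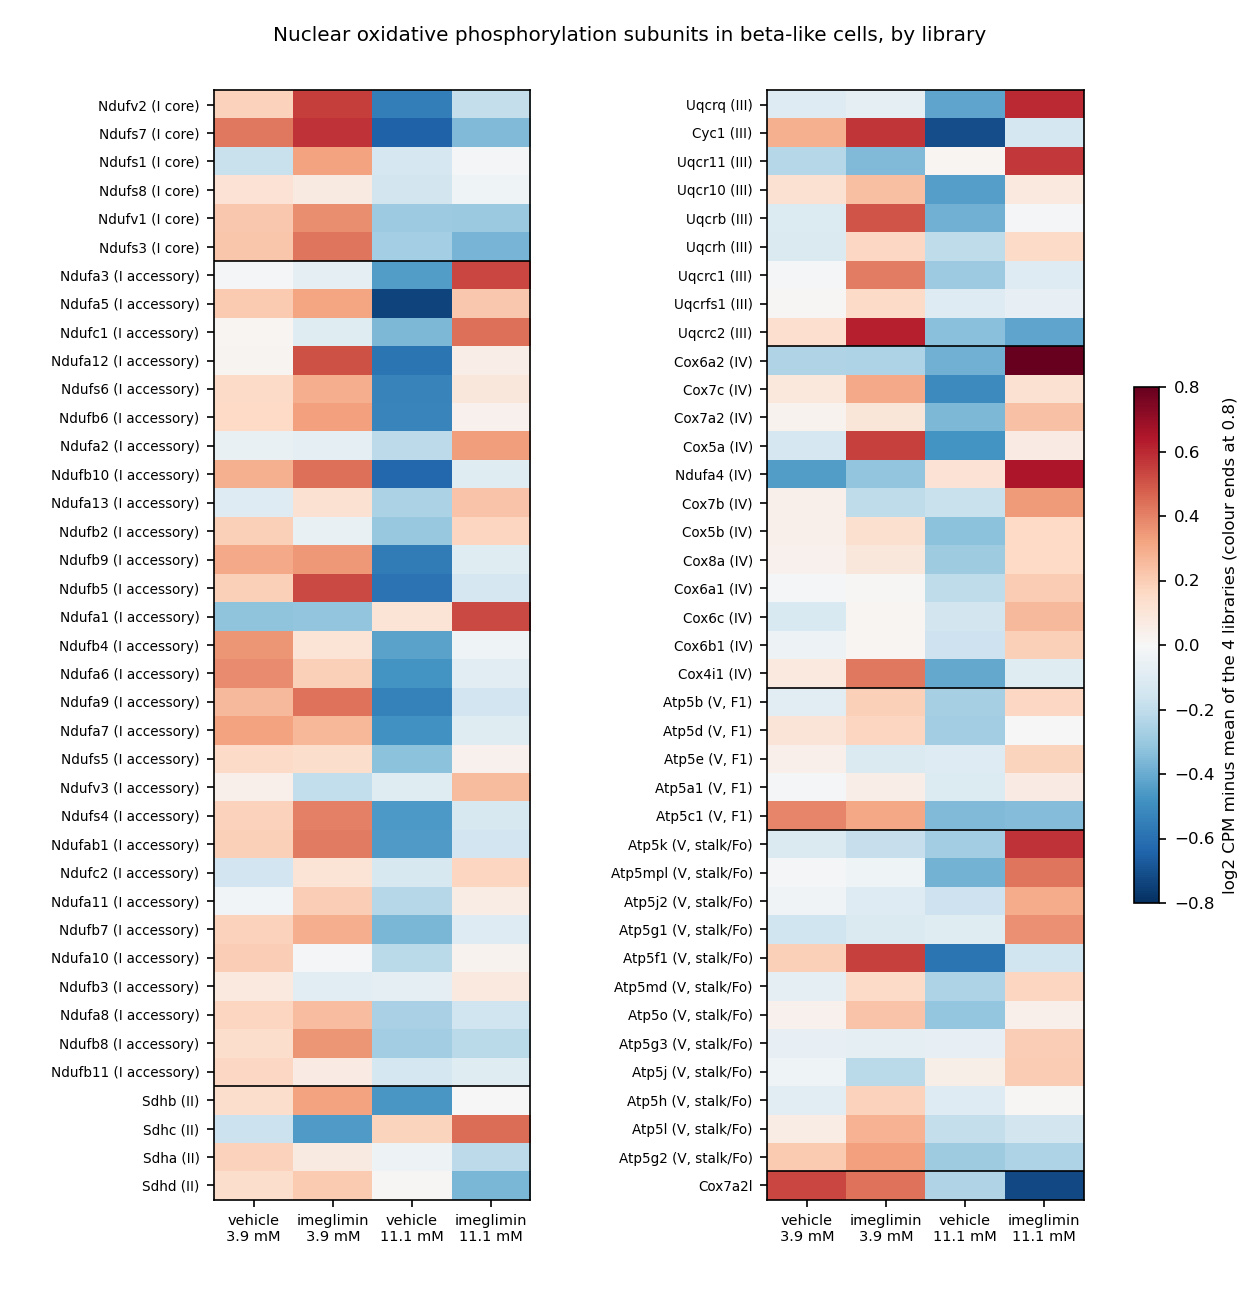
Level of 78 of the 79 compared genes in beta-like cells of the 4 libraries (columns), as log2 CPM minus the gene's mean over the 4 libraries, with genes ordered by role (rows). Cox6a2, Uqcrq and Ndufa3 are highest with imeglimin at 11.1 mM, and many complex I genes are lowest with vehicle at 11.1 mM.

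Accessory subunits of complex I stood above its catalytic core in this comparison. With TMM scaling all 29 accessory subunits of complex I were above vehicle (median log2 ratio 0.39, 5 of them at least 1.5-fold). The 7 core subunits, which carry the flavin and the iron-sulphur clusters, had a median of 0.11 with 4 above and 3 below. Ndufa3 measured 60.9 CPM with vehicle and 58.5 with imeglimin at 3.9 mM, and 45.3 with vehicle and 89.1 with imeglimin at 11.1 mM, a log2 ratio at 11.1 mM of 0.98 (0.91 to 1.04). Ndufa5 measured 182, 197, 94.2 and 184 CPM in the same order (log2 ratio 0.96, 0.92 to 1.01). Its 11.1 mM vehicle library was the low one and the other 3 lay close together, whereas for Ndufa3 the imeglimin library at 11.1 mM was also the highest of the 4. Ndufc1, another accessory subunit, had a log2 ratio of 0.80.

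Among the core subunits with imeglimin at 11.1 mM, Ndufv1, the flavin subunit that takes electrons from NADH, had a log2 ratio of -0.0019, and its partner Ndufv2 was at 0.36. The iron-sulphur subunits gave 0.12 for Ndufs1, 0.29 for Ndufs7 and 0.11 for Ndufs8, and Ndufs3 gave -0.10. These core genes lay below the upper part of the accessory range, which reached 0.98.

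Complex II, the succinate dehydrogenase, had no member past 1.5-fold at 11.1 mM. The iron-sulphur subunit Sdhb was at 0.47 and the membrane anchor Sdhc at 0.27, while the flavin subunit Sdha was at -0.16 and the anchor Sdhd at -0.37 (39.0, 41.0, 35.6 and 27.5 CPM over the 4 libraries). In complex III the small subunit Uqcrq was the second highest of all 79. It measured 385, 393, 309 and 624 CPM (log2 ratio at 11.1 mM 1.02, 0.99 to 1.04), with the imeglimin library at 11.1 mM above the other 3. The catalytic subunits were lower in the order, with cytochrome c1 (Cyc1) at 0.57 and the Rieske protein Uqcrfs1 at 0.04, and the core proteins Uqcrc1 and Uqcrc2 at 0.19 and -0.09.

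All 12 compared nuclear genes of complex IV were above vehicle at 11.1 mM, with the highest median of any complex (0.50). Cox6a2, the heart and muscle form of a regulatory subunit, led all 79 members. It measured 85.6, 85.1, 77.3 and 185 CPM, from 6524, 4428, 5187 and 12881 UMIs, a log2 ratio of 1.26 (1.21 to 1.31). The first 3 libraries were near one another and imeglimin at 11.1 mM stood alone. Among the other subunits, Cox4i1 was at 0.31 (362, 460, 258 and 321 CPM), Cox5a at 0.55 (221, 355, 174 and 255 CPM) and Cox5b at 0.49.

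With TMM scaling all 17 genes of complex V were above vehicle at 11.1 mM too. They were so by less in the F1 head (median 0.28) than in the stalks and membrane part (0.38). The F1 genes gave 0.18 for Atp5a1 and 0.43 for Atp5b, the alpha and catalytic beta subunits, 0.01 for Atp5c1, 0.28 for Atp5d and 0.28 for Atp5e. The small membrane subunit Atp5k measured 109, 104, 97.9 and 177 CPM (0.86, 0.81 to 0.90), and Atp5mpl, a proteolipid found with the enzyme, measured 113, 112, 87.9 and 153 CPM (0.80, 0.76 to 0.85). For both genes the imeglimin library at 11.1 mM was above the other 3. Cox7a2l was the lowest of all 79, with 611, 571, 358 and 256 CPM and a log2 ratio of -0.48 (-0.51 to -0.45).

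**Figure D2:**
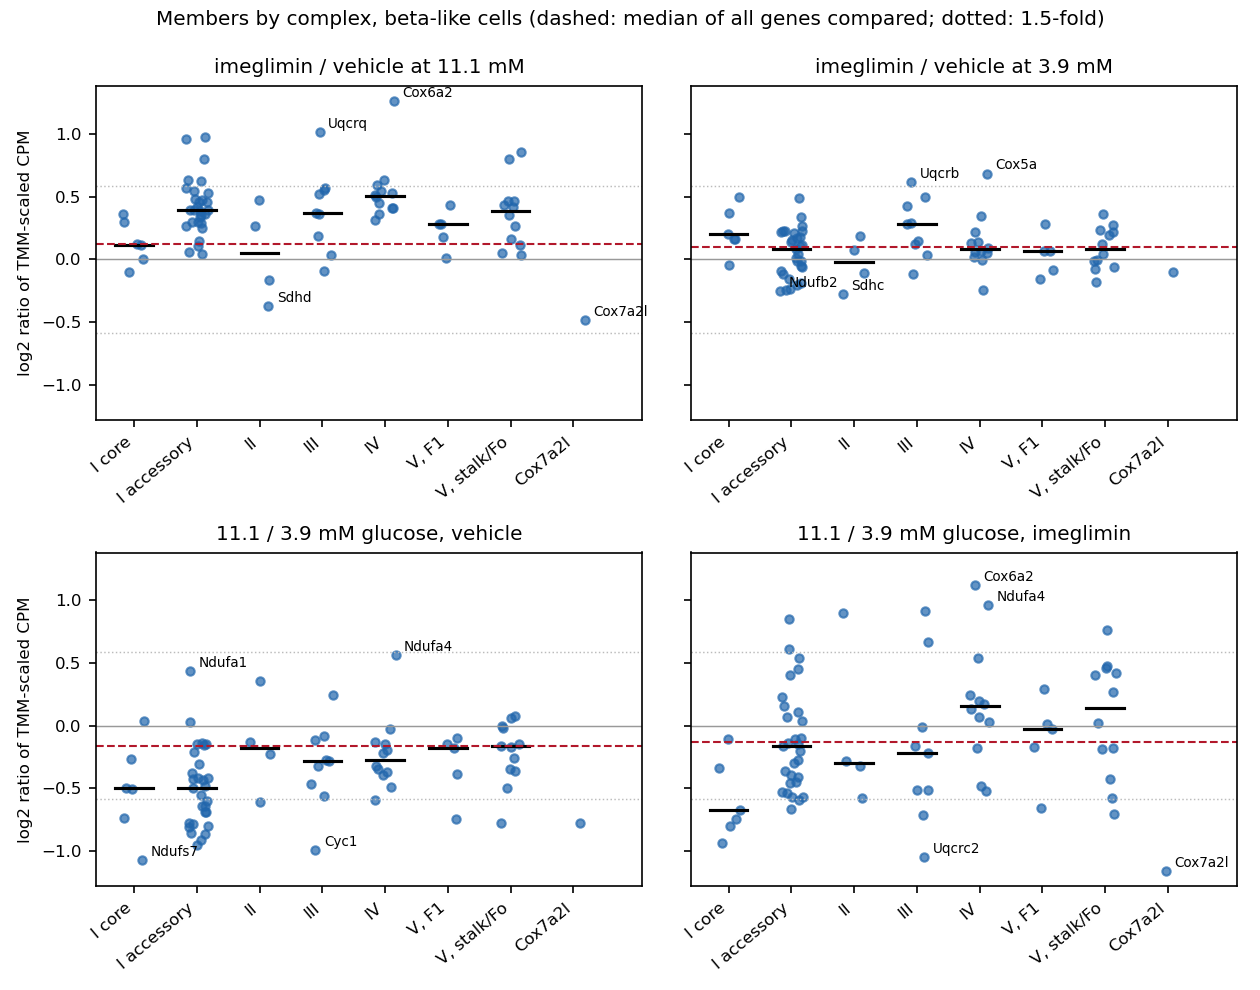
Log2 ratio of 78 of the 79 compared genes in beta-like cells (dots) by role (horizontal axis), with 1 panel per comparison, a black bar at each role's median over all 79, a dashed line at the median of all genes compared and dotted lines at 1.5-fold. With imeglimin at 11.1 mM the role medians run from 0.05 (complex II) to 0.50 (complex IV), and with vehicle the complex I genes lie at a median of -0.50 at 11.1 against 3.9 mM.

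At 3.9 mM glucose the members lay close to other genes with imeglimin. Their median log2 ratio was 0.11 and that of all genes 0.10. Of the 79, 3 were at least 1.5-fold higher and 0 lower, against 12.4% and 10.5% of all 6002 genes compared, and 53 were above vehicle at all (58.6% of all genes). With plain totals, or without hormone and mitochondrial transcripts, 0 were higher (3.49% and 6.27% of all genes). Among the higher were Cox5a (0.68, 0.65 to 0.71) and Uqcrb, a small complex III subunit (276, 422, 228 and 295 CPM, log2 ratio 0.61). Below these came Ndufs1 (0.50), Uqcrc2 (0.49; 130, 182, 94.1 and 88.3 CPM) and the accessory subunit Ndufa12 (0.49). For Uqcrc2 and Uqcrb the imeglimin library at 3.9 mM was the highest of the 4. The lowest 6 were Sdhc (-0.28), Ndufb2 (-0.25), Cox7b (-0.24), Ndufb4 (-0.24), Ndufv3 (-0.24) and Ndufa10 (-0.21).

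By role at 3.9 mM, the complex I core had a median of 0.20 and complex III of 0.28, and the accessory subunits of complex I (0.08), complex IV (0.08), the F1 head (0.07) and the rest of complex V (0.08) lay near all genes. The remaining catalytic members gave 0.16 for Ndufv1, 0.37 for Ndufv2, 0.20 for Ndufs3, 0.16 for Ndufs7 and -0.04 for Ndufs8. Sdha was at -0.11, Sdhb at 0.18 and Sdhd at 0.07, and Cyc1 at 0.29, Uqcrfs1 at 0.14 and Uqcrc1 at 0.42. Cox4i1 was at 0.35 and Cox5b at 0.09, and Atp5a1, Atp5b, Atp5c1, Atp5d and Atp5e at 0.07, 0.28, -0.08, 0.07 and -0.15. The genes that led at 11.1 mM were near 0 here: Cox6a2 at -0.01, Uqcrq at 0.03, Ndufa3 at -0.06 and Atp5k at -0.07. With TMM scaling, both imeglimin comparisons, which share no library, placed 48 genes above vehicle and 2 below. Another 24 were above at 11.1 mM and below at 3.9 mM, and 5 the reverse. Those are 60.8%, 2.53%, 30.4% and 6.33% of the 79, and the same signs were seen in 45.6%, 20.3%, 22.8% and 11.2% of the 5286 genes compared in both. With scaling that leaves out hormone and mitochondrial transcripts, the 3.9 mM median turned to -0.05, and 42 of the 79 genes changed sign between scalings.

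High glucose was compared with low glucose under vehicle as the second axis of the design. The vehicle library at 11.1 mM is also the control of the first comparison, so a low value there enters both. Here 21 of the 79 genes were at least 1.5-fold lower at 11.1 mM and 1 was higher, against 20.1% and 9.86% of all 5904 genes compared, where the members' own shares were 26.6% and 1.27%. With plain totals 52 were lower and 0 higher (48.5% and 3.66% of all genes), and without hormone and mitochondrial transcripts 12 lower and 3 higher (11.6% and 15.9%). The members' median was -0.35 and that of all genes -0.16, and 54 of the 79 lay below the median of all genes. At 11.1 mM 9 of the 79 were above their 3.9 mM level with TMM scaling (38% of all genes), and 24 of the 79 changed sign between scalings. Complex I held 15 of the 21, with a median of -0.50 in both its core and its accessory genes.

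Ndufs7, the core subunit next to the quinone site, was the lowest, at 202, 226, 96.4 and 118 CPM and a log2 ratio under vehicle of -1.07 (-1.11 to -1.03). Cyc1 followed with 105, 128, 52.5 and 77.8 CPM (-0.99, -1.05 to -0.94). Ndufa5 was at -0.95, and the accessory subunits Ndufb10, Ndufb9 and Ndufa6 were at -0.91, -0.86 and -0.86. Both 11.1 mM libraries lay below both 3.9 mM libraries for Ndufs7 and Cyc1. Among the highest were Ndufa4 (0.56; 317, 347, 468 and 676 CPM), Ndufa1 (0.44; 106, 106, 143 and 191 CPM), Sdhc (0.35; 80.9, 66.7, 103 and 124 CPM), Uqcr11 (0.25) and Atp5j (0.08). Without TMM scaling, Sdhc was at -0.04, Uqcr11 at -0.15 and Atp5j at -0.32.

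The other catalytic members under vehicle gave -0.51 for Ndufv1, -0.74 for Ndufv2, 0.04 for Ndufs1, -0.50 for Ndufs3 and -0.26 for Ndufs8. In complex II, Sdha was at -0.23, Sdhb at -0.61 and Sdhd at -0.13. Uqcrfs1, Uqcrc1 and Uqcrc2 were at -0.11, -0.28 and -0.46, which put Cyc1 well below its partners in complex III. Cox4i1, Cox5a and Cox5b were at -0.49, -0.35 and -0.37. In the F1 head Atp5c1 was at -0.75, and Atp5a1, Atp5b, Atp5d and Atp5e lay between -0.39 and -0.10.

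Under imeglimin the same glucose comparison gave 8 of 79 genes at least 1.5-fold higher and 11 lower at 11.1 mM, against 15.6% and 23.6% of all 6057 genes, and 31 above their 3.9 mM level (41.9%). With plain totals 6 were higher and 24 lower (11% and 31.4% of all genes), and without hormone and mitochondrial transcripts 13 higher and 5 lower (21.4% and 16%). The members' median was -0.16 and that of all genes -0.13, and 15 of the 79 genes changed sign between scalings. With TMM scaling all 7 core subunits of complex I were lower (median -0.67, 4 of them past 1.5-fold). Complex IV had a median of 0.16 and the stalks and membrane part of complex V 0.14. Cox7a2l was lowest at -1.16 (-1.18 to -1.13), with Uqcrc2 at -1.05, Ndufs7 at -0.93, Ndufs3 at -0.80, Ndufv2 at -0.75 and Cyc1 at -0.71. The highest were Cox6a2 (1.12, 1.07 to 1.17), Ndufa4 (0.96), Uqcr11 (0.92; 144, 132, 171 and 250 CPM), Sdhc (0.90), Ndufa1 (0.85) and Atp5k (0.76).

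Ndufa4, Ndufa1, Uqcr11 and Sdhc were above their 3.9 mM level under vehicle and under imeglimin alike (Uqcr11 and Sdhc under vehicle only with TMM scaling or with hormone and mitochondrial transcripts left out), and Ndufs7, Cyc1, Uqcrc2 and Cox7a2l were below it in both. The 2 glucose comparisons share no library. With TMM scaling 46 genes were below 0 in both, 7 above in both, 24 below under vehicle and above under imeglimin, and 2 the reverse. Of the 5602 genes compared in both, 47.9% were below, 29.4% above, 14.2% below and then above, and 8.55% the reverse. At least 1.5-fold lower in both were 8 members (10.1%), near the share of all genes (11.9%). The remaining catalytic genes under imeglimin gave -0.67 for Ndufv1, -0.34 for Ndufs1 and -0.11 for Ndufs8, with Sdha, Sdhb and Sdhd at -0.28, -0.32 and -0.57. Uqcrfs1 and Uqcrc1 were at -0.22 and -0.51, and Cox4i1, Cox5a and Cox5b at -0.52, -0.48 and 0.03. In F1, Atp5c1 was at -0.65 and the other 4 lay between -0.17 and 0.29.

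Scaling bears on all of these values, since insulin takes a different part of each library. Leaving hormone and mitochondrial transcripts out of the totals moved the median of all genes at imeglimin 11.1 mM from 0.12 to -0.10, and the members' median from 0.37 to 0.18. For glucose under vehicle the median of all genes was -0.16 with TMM, -0.57 with plain totals and 0.06 without those transcripts. The members' median minus that of all genes was steadier. It was 0.25 for imeglimin at 11.1 mM (0.24 to 0.34 over 12 alternatives), 0.01 at 3.9 mM (-0.01 to 0.11), -0.19 for glucose under vehicle (-0.34 to -0.17) and -0.03 for glucose under imeglimin (-0.16 to -0.0047).

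Genes that work with the subunits were counted in the same fits. Of the mitochondrially encoded subunits, 0 of 12 passed 1.5-fold with imeglimin at 11.1 mM (median -0.01) and 0 of 11 at 3.9 mM (0.00069). Of all genes, 5.76% were higher and 4.27% lower at 11.1 mM, and 12.4% and 10.5% at 3.9 mM. At 11.1 against 3.9 mM glucose, 7 of 11 were higher under vehicle (0.92) and 7 of 12 under imeglimin (0.75). The shares of all genes there were 9.86% and 15.6%. With vehicle and TMM scaling these mitochondrial transcripts, among them mt-Nd4 at 1.09 and mt-Cytb at 1.07, thus had the opposite sign to most nuclear partners. The size of these ratios depends on the scaling. With plain totals, mitochondrial transcripts together took 2.41% of beta-like UMIs with vehicle at 3.9 mM and 2.59% at 11.1 mM. Nuclear members made 0.97 UMIs per mitochondrially encoded UMI with vehicle at 3.9 mM, 1.02 with imeglimin at 3.9 mM, 0.54 with vehicle at 11.1 mM and 0.73 with imeglimin at 11.1 mM. The share of cells lost to the limit of 20% mitochondrial UMIs was 4.83%, 2.29%, 0.733% and 0.414% in that order, and its part in these ratios was not tested.

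Assembly factors, which build the complexes without staying in them, had medians of the same sign as the members with TMM scaling. So did all genes compared, at 0.12 and 0.10 for imeglimin at 11.1 and 3.9 mM. For glucose all genes were at -0.16 under vehicle and -0.13 under imeglimin. With imeglimin at 11.1 mM 1 of 20 was at least 1.5-fold higher and 0 lower (median 0.31), led by the complex I factor Ndufaf4 (0.87), and at 3.9 mM 6 of 31 were higher and 2 lower (0.05). For glucose, 13 of 25 were lower under vehicle (-0.65) and 13 of 31 under imeglimin (-0.31), with none higher. Of all genes compared, 5.76% were higher and 4.27% lower with imeglimin at 11.1 mM, and 12.4% and 10.5% at 3.9 mM. Glucose gave 9.86% and 20.1% of all genes under vehicle, and 15.6% and 23.6% under imeglimin. The 1 of 20 was near its share of all genes, and the same shares apply to the carriers that follow. Sco2, a copper chaperone of complex IV, was at -1.12 under vehicle, and the complex I factor Ndufaf6 at -1.07 under vehicle and -1.97 under imeglimin. Among carriers and coupling proteins, imeglimin gave 1 higher and 1 lower of 14 at 11.1 mM and 0 higher and 2 lower of 13 at 3.9 mM. Glucose gave 2 higher and 3 lower of 13 under vehicle and 2 higher and 1 lower of 13 under imeglimin, where the uncoupling protein gene Ucp2 was at 1.69 and 1.87. Higd1a was at 1.80 with imeglimin at 11.1 mM and 5.04 for glucose under imeglimin. In each of the alpha-like, endothelial-like and stromal-like classes it was over 10-fold above beta-like cells in at least 1 library. Transcription regulators of the subunits were sparse, with 3 to 6 of 12 compared. Gabpb1, a subunit of the ETS-family factor NRF-2, was at 1.49 with imeglimin at 3.9 mM, and Nrf1 at -1.34 at 11.1 against 3.9 mM under vehicle.

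The sum of all members took 2.33%, 2.04%, 1.40% and 1.75% of beta-like UMIs in the library order used above. Outside hormone and mitochondrial transcripts the shares were 2.91%, 2.84%, 2.61% and 2.96%, and with insulin alone left out they were 2.62%, 2.56%, 2.13% and 2.47%. The lowest library was vehicle at 11.1 mM on all 3 scales. In alpha-like cells the shares on the second scale were 2.26%, 2.27%, 2.21% and 2.33%, and in delta-like cells 2.29%, 2.59%, 2.37% and 2.76%. In all 5 classes of the plot of shares, imeglimin at 11.1 mM was above vehicle at 11.1 mM on that scale. Within beta-like cells, the median cell gave 2.88%, 2.78%, 2.51% and 2.91%, and the quartiles at 11.1 mM (2.15% to 2.93% for vehicle, 2.47% to 3.35% for imeglimin) overlapped.

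**Figure D3:**
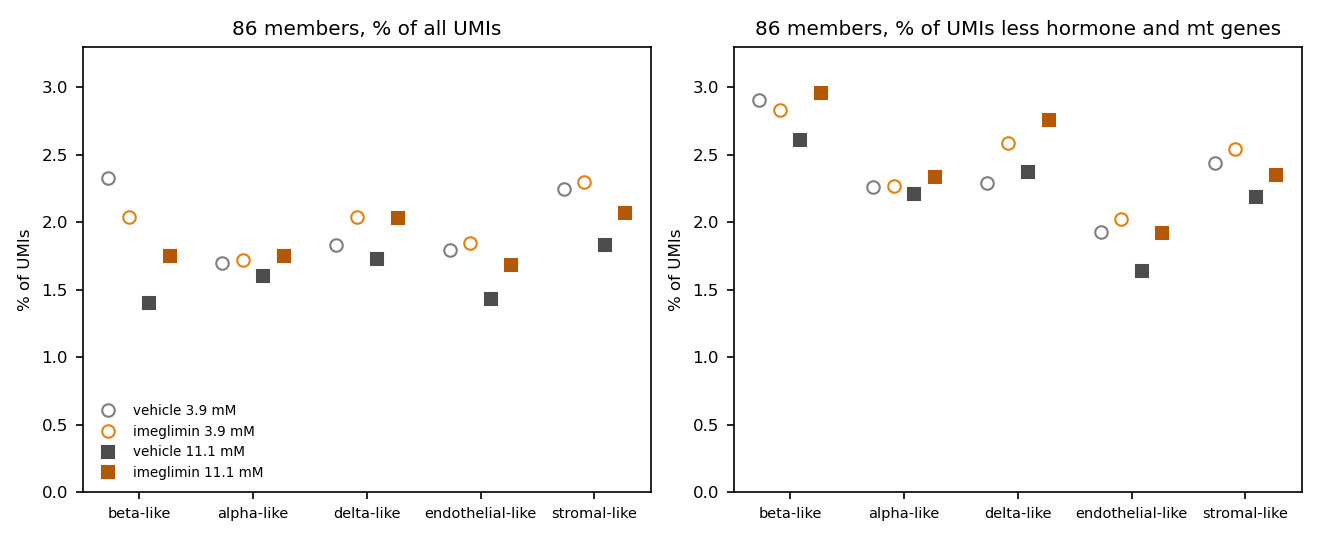
Percent of UMIs from the 86 genes by class and library, of all UMIs and of UMIs without hormone and mitochondrial transcripts. In beta-like cells the range of 1.40% to 2.33% narrows to 2.61% to 2.96% on the second scale, and imeglimin at 11.1 mM lies above vehicle at 11.1 mM in each class there.

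Alpha-like and delta-like cells were compared in the same way, at 50 CPM or more. In alpha-like cells at 11.1 mM, imeglimin gave 6 of 74 genes at least 1.5-fold higher and 1 lower, against 6.06% and 4.82% of all genes, with a median of 0.21 (all genes 0.06) and 64 above vehicle (58.6%). Without hormone and mitochondrial transcripts 3 were higher and 1 lower (3.29% and 7.95% of all genes), and the median fell to 0.057. Uqcrq led with 168, 310, 157 and 278 CPM (log2 ratio 0.82, 0.70 to 0.95), followed by Atp5mpl (0.76) and Ndufa3 (0.75). The lowest were Sdhd (-0.87, -1.14 to -0.61), Ndufa8 (-0.14) and Ndufa7 (-0.14). At 3.9 mM 12 of 76 were higher and 0 lower, against 13.3% and 7.33%, with a median of 0.25 (all genes 0.10) and 60 above vehicle (59.8%). This median fell to 0.021 with plain totals and 0.011 without hormone and mitochondrial transcripts, with 3 higher and 1 lower in each (5.98% and 15.4%, and 5.07% and 16%, of all genes). There Cox5a (1.04, 0.91 to 1.17) and Uqcrq (0.89) were highest, and Sdhd (-0.48), Ndufb7 (-0.32) and Atp5md (-0.21) lowest. Uqcrq was thus high with imeglimin at both glucose levels in alpha-like cells. Malat1 took 2.55% and 2.60% of alpha-like UMIs with vehicle and 4.35% and 5.04% with imeglimin at 3.9 and 11.1 mM, and its part in these ratios was not tested.

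Glucose left the alpha-like members close together. Under vehicle 0 of 72 passed 1.5-fold in either direction (1.04% of all genes were higher and 0.301% lower), with Ndufv3 (0.46), Atp5o (0.17) and Cox4i1 (0.11) highest and Ndufa3 (-0.39), Atp5k (-0.32) and Atp5e (-0.30) lowest. Under imeglimin 0 of 75 passed (2.03% and 3.02%), with Atp5k (0.39), Ndufa3 (0.37) and Ndufv3 (0.36) highest and Cox5a (-0.48), Cox7a2l (-0.48) and Ndufv1 (-0.41) lowest. The medians were -0.05 and -0.06 (all genes -0.02 and -0.07), with 22 of 72 genes above their 3.9 mM level under vehicle (42.6% of all genes) and 25 of 75 under imeglimin (38.7%). Between scalings 15 and 18 alpha-like members changed sign for glucose under vehicle and imeglimin. For imeglimin at 11.1 and 3.9 mM, 14 and 21 did. Whether the glucose ratios of beta-like and alpha-like cells differ beyond chance was not tested, since each rests on 1 library per condition.

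In delta-like cells at 11.1 mM, imeglimin gave 10 of 76 genes at least 1.5-fold higher and 0 lower, against 3.8% and 3.74% of all genes, a median of 0.29 (all genes 0.04) and 68 above vehicle (55.1%). With plain totals 6 were higher (2.63% of all genes) and without hormone and mitochondrial transcripts 5 (2.33%). Uqcrq (0.99, 0.84 to 1.14), Cyc1 (0.78) and Atp5mpl (0.72) led, and Ndufs1 (-0.46), Cox7a2l (-0.38) and Ndufa9 (-0.31) were lowest. At 3.9 mM 25 of 78 were higher and 0 lower, against 22.3% and 8.18%, with a median of 0.40 (all genes 0.22) and 75 above vehicle (65.6%). Under both other scalings 8 were higher (8.83% of all genes with plain totals, 9.3% without hormone and mitochondrial transcripts), with medians of 0.14 and 0.16. Cox6a2 (2.95), Uqcrq (1.22) and Cox5a (1.22) were highest and Ndufa1 (-0.22), Sdha (-0.13) and Atp5j (-0.03) lowest. Insulin took 9.67% of delta-like UMIs in that imeglimin library against 1.07% with vehicle, and the part of beta-cell RNA in the list as a whole was not tested. Uqcrq was among the 3 highest in all 4 imeglimin comparisons of alpha-like and delta-like cells.

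Glucose gave 1 of 77 delta-like members higher and 0 lower under vehicle (2.48% and 1.15% of all genes). The extremes were Ndufc2 (0.59), Ndufv3 (0.50) and Ndufa9 (0.46) above and Cyc1 (-0.36), Uqcrc1 (-0.23) and Ndufb9 (-0.18) below. Under imeglimin 1 of 78 was higher and 5 lower (6.95% and 13%), or 3 and 3 without hormone and mitochondrial transcripts (9.99% and 7.93%), with Ndufa1 (0.88), Uqcr11 (0.49) and Atp5k (0.47) above and Cox6a2 (-1.90) and Cox7a2l (-0.75) below. The medians were 0.08 and -0.08, with all genes at 0.03 and -0.14, and 54 of 77 genes (56.6% of all genes) and 31 of 78 (37.4%) were above their 3.9 mM level. Between scalings 30 and 13 delta-like members changed sign for glucose under vehicle and imeglimin. For imeglimin at 11.1 and 3.9 mM, 6 and 19 did.

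Between classes, levels outside hormone and mitochondrial transcripts were compared over the 4 libraries, which differ in treatment and so are not replicates. In 33 of 79 genes every beta-like library was above every alpha-like one, against 19.9% of all genes, and in 1 every one was below (14.5%). The exception was Atp5e, at 447 to 603 CPM in beta-like and 704 to 890 CPM in alpha-like cells. By medians, Cox6a2 (log2 ratio 3.25), Cox5a (1.08), Ndufa12 (1.06) and Ndufb9 (1.02) were furthest above alpha-like cells. Cox5a lay at 301 to 487 CPM in beta-like and 144.5 to 251.4 CPM in alpha-like cells. Against delta-like cells 5 of 79 genes were above in every library (7.84% of all genes), namely Atp5a1, Cox8a, Atp5b, Atp5d and Ndufa11, and Ndufb3 alone was below (9.13%). Against endothelial-like cells 52 of 80 were above (26.6%) and Ndufa4l2 alone was below (27.1%). Against stromal-like cells 19 of 81 were above (27%) and Cox4i2 and Ndufa4l2 below (19%). Alpha-like cells were below delta-like cells in 22 of 78 genes (18.8%) and above them in Atp5e (10.3%).

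Cox6a2 was examined further as the member with the highest ratio and a known tissue form. The gene (ENSMUSG00000030785) lies on chromosome 7 from 128205435 to 128206387 on the minus strand in GENCODE vM21, and its partner Cox6a1 on chromosome 5. Counting 1 transcript end per molecule, Cox6a2 made up 34.1%, 33.6%, 34.8% and 49.0% of the pair's UMIs in beta-like cells. Only imeglimin at 11.1 mM stood apart (48.4% to 49.7%, exact interval), while Cox6a1 itself was at 166, 168, 145 and 192 CPM. In alpha-like cells the share was 3.44% and 1.04% with vehicle and 18.03% and 10.22% with imeglimin at 3.9 and 11.1 mM, from 31, 7, 285 and 93 UMIs. In delta-like cells it was 9.84% and 5.57% with vehicle and 39.0% and 14.0% with imeglimin. The imeglimin share was the higher at both glucose levels in both classes.

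Droplets also pick up free RNA, and beta-like cells held most of the Cox6a2 and insulin UMIs of each library. Cox6a2 was therefore set against the insulin UMIs of the same cells. Endothelial-like cells had 1.048, 1.247, 1.302 and 1.099 times the Cox6a2 per insulin UMI of beta-like cells in their library, and stromal-like cells 0.639, 0.968, 0.885 and 0.930 times. Alpha-like cells had 0.926 and 0.600 times with vehicle at 3.9 and 11.1 mM, but 4.72 (4.17 to 5.32) and 2.13 times (1.72 to 2.61) with imeglimin. The cluster led by Ppy and Pyy had 0.298 and 0.327 times with vehicle, from 3 and 1 UMIs, and 12.2 (9.96 to 14.8) and 4.58 times (3.22 to 6.32) with imeglimin. Delta-like cells had 1.54 and 1.52 times with vehicle, and 2.55 (2.35 to 2.77) and 1.17 times (0.901 to 1.49) with imeglimin at 3.9 and 11.1 mM. The beta-cell genes Slc2a2 and Sytl4 measured the same way stayed between 0.773 and 1.20 times in all 4 alpha-like libraries, from only 17 to 40 UMIs. Mafa and Ucn3 lay on both sides of 1 there, and Iapp, G6pc2, Nkx6-1 and Slc30a8 were above 1 with vehicle as well as imeglimin. In delta-like cells Slc2a2 was at 0.499 to 0.959, Sytl4 at 0.638 to 1.09 and Iapp at 2.05 to 7.58 times. The part of free RNA in the Cox6a2 values was not tested. In alpha-like cells with under 1% insulin UMIs, the Cox6a2 share was 2.21% and 0.489% with vehicle and 18.2% and 8.04% with imeglimin.

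**Figure D4:**
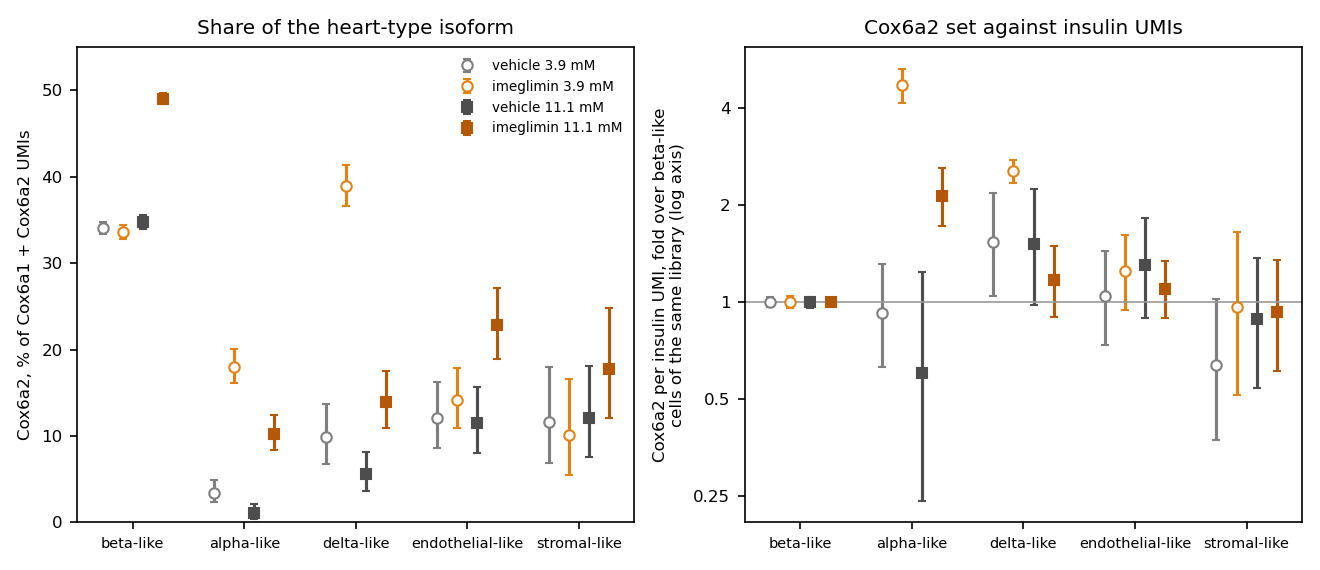
Left, Cox6a2 as a percent of Cox6a1 and Cox6a2 UMIs by class and library. Right, Cox6a2 per insulin UMI as a fold of beta-like cells in the same library, on a log axis, with bars for exact 95% counting intervals. Alpha-like cells reach 4.72 and 2.13 with imeglimin and stay below 1 with vehicle, while endothelial-like cells lie at 1.048 to 1.302.

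Cells with at least 1 Cox6a2 UMI made up 41.6%, 40.5%, 39.1% and 50.1% of beta-like cells, at medians of 10146 to 13013 UMIs. After each cell was thinned to 3000 UMIs, with 30 to 98 shallower cells per library left out, the shares were 19.98%, 17.95%, 15.1% and 26.8%. Alpha-like cells gave 3.495%, 13.2%, 0.783% and 5.83%, and endothelial-like cells, taken as cells that should lack the gene, gave 8.77%, 7.32%, 6.73% and 4.74% at lower median depths (3184 to 6680 UMIs). Thinned in the same way, with 30 to 54 alpha-like and 23 to 202 endothelial-like cells per library left out, alpha-like cells gave 1.14%, 6.56%, 0.171% and 3.45% and endothelial-like cells 4.05%, 4.48%, 2.44% and 3.64%. At that depth the alpha-like share exceeded the endothelial-like one only with imeglimin at 3.9 mM, where the exact intervals overlapped (5.14% to 8.23% and 2.34% to 7.69%). With imeglimin at 11.1 mM the alpha-like share was close to the endothelial-like one. Endothelial-like cells are no matched background, since insulin took 4.52% and 7.59% of their UMIs with imeglimin at 3.9 and 11.1 mM. In alpha-like cells it took 1.57% and 1.30%, and in delta-like cells 9.67% at 3.9 mM. The part of free RNA in these shares was not tested. Delta-like cells gave 3.004%, 21.4%, 2.17% and 4.88%, and with imeglimin at 3.9 mM their interval (18.1% to 24.99%) was clear of the endothelial-like one. The thinned order matched the CPM order for the highest beta-like library and for the lowest.

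Among beta-like cells Cox6a2 also had the highest variance over mean of all members. At 3000 UMIs per cell it was 1.85, 1.39, 1.60 and 2.23, which ranked 1 of 79 members in each library. The other members had medians of 1.02 to 1.05, near the value of 1 that counting alone gives, and Atp5g1 (1.16), Cox8a (1.21) and Ndufa4 (1.23) came next in the vehicle 3.9 mM, imeglimin 3.9 mM and imeglimin 11.1 mM libraries. Within clusters of at least 50 cells in both 11.1 mM libraries, Cox6a2 outside hormone and mitochondrial transcripts was higher with imeglimin in 4 of 5. It was at 205 against 387 CPM in the cluster that holds most imeglimin cells (134 vehicle and 3080 imeglimin cells). In the one with the largest share of vehicle cells (41.0%) it was at 180 against 284 CPM (1999 and 113 cells). In the fifth it was 296 against 247 CPM, from 56 and 90 UMIs. Cox6a2 was picked for its ratio between these same libraries, so the clusters are parts of that ratio and not replicates. The share of all genes for this count was not computed.

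Other tissue forms were split by class. Ndufa4l2, a form of Ndufa4 linked to low oxygen, made up 21.3%, 16.3%, 52.2% and 61.4% of the pair in stromal-like cells and 7.65%, 5.22%, 9.82% and 11.4% in endothelial-like cells, but gave only 16 to 77 UMIs per beta-like library. Both 11.1 mM libraries were above both 3.9 mM libraries in each of these classes. Cox4i2, a form of Cox4i1 also linked to low oxygen, made up 2.19%, 13.9%, 14.3% and 24.1% in stromal-like and 4.26%, 8.99%, 3.44% and 4.68% in endothelial-like cells, with 0 to 8 UMIs per beta-like library. The stromal-like class had 77 to 170 cells per library, and its make-up moved as well. Markers of the same cell type did not all move together. Of the mural genes, Rgs5 was at 271, 425, 907 and 1162 CPM, Pdgfrb at 333, 490, 433 and 513 CPM and Acta2 at 315, 54.3, 500 and 90.98 CPM. Of the fibroblast genes, Col1a1 was at 1356, 209, 1347 and 353 CPM and Dcn at 572, 423, 309 and 312 CPM. Col3a1, Pdgfra and Lum were, like Col1a1, lower with imeglimin than with vehicle at both glucose levels. The part of these markers in the shares was not tested.

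Atp5g1, Atp5g2 and Atp5g3 encode precursors with different targeting sequences that give the same mature c-ring subunit of complex V. All 3 were expressed in beta-like cells. Atp5g1 held 32.8%, 32.1%, 39.2% and 45.0% of their UMIs, Atp5g2 48.9%, 50.5%, 39.8% and 34.0%, and Atp5g3 18.4%, 17.4%, 21.0% and 21.0%. Atp5g2 was the most abundant in both 3.9 mM libraries and Atp5g1 in the imeglimin library at 11.1 mM. Atp5g2 is uncertain, since 52.1% of the 61-base words in the last 300 bases of its transcripts also occur in other genes, though these are not in the feature lists. Atp5g1 is uncertain too, since 30.3% of its words occur in other genes, among them Gm32885, Itch and Ncbp3, which are in the lists. The muscle form Cox7a1 gave 40, 31, 73 and 126 UMIs in beta-like cells beside 24286 to 38041 of Cox7a2. Cox6b2 gave 6 to 13 and Cox7b2 5 to 12 UMIs per beta-like library, while Cox6b1 and Cox7b were at 334 to 429 and 237 to 345 CPM. Cox8b and Cox8c had no UMI in any library, where 3 UMIs set the limit, and Cox8a was at 904, 937, 724 and 985 CPM.

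**Figure D5:**
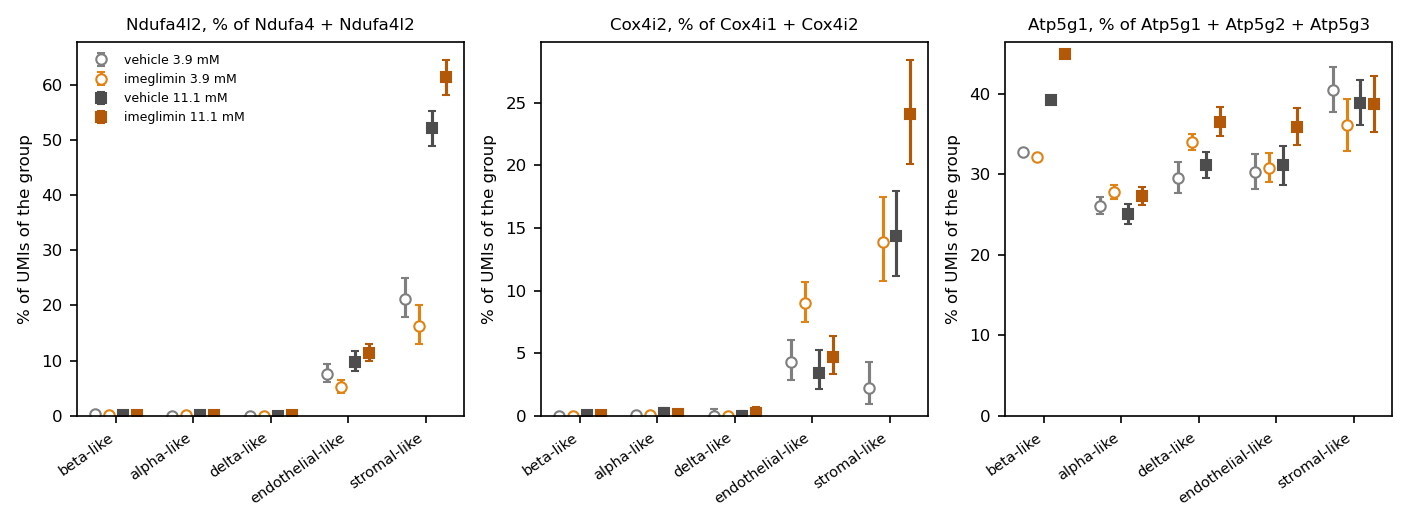
Share of Ndufa4l2, Cox4i2 and Atp5g1 within their isoform groups by class and library, with exact 95% counting intervals. Ndufa4l2 reaches 61.4% in stromal-like cells and Cox4i2 24.1%, and Atp5g1 runs from 32.1% to 45.0% in beta-like cells.

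Transcript length was the one further feature set against the ratios, because the members are short. It was taken as the median over all annotated protein-coding transcripts of a gene. This need not be the length of the transcript expressed, and it put Ndufs1 at 651 and Atp5g1 at 2676 bases. With imeglimin at 11.1 mM Spearman's rho between this annotated length and log2 ratio was -0.41 over the 79 members and -0.14 over 5552 genes. It is a description across genes that share the same libraries. The 60 members with an annotated length under 1000 bases had a median log2 ratio of 0.39 and the other 19 had 0.18, against 0.18 and 0.10 for all genes. At 3.9 mM rho was 0.03 among members. For glucose it was -0.12 under vehicle and -0.35 under imeglimin among members, opposite in sign to all genes (0.25 and 0.19). Reads of 23 of the 86 genes can match other genes at the 3′ end. Of these, 5 (Atp5g2, Atp5h, Atp5l, Cox7c and Ndufs3) share over 50% of the 61-base words in the last 300 bases of their transcripts, which makes their levels uncertain. The genes that share words with these 5 are not in the feature lists, while Atp5g1 (30.3%) and Cox5b (15.4%) share words with genes that are.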

How the data were processed

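Raw UMI counts per gene and cell, 1 matrix for each of the 4 libraries, were deposited by the authors; they were made with Cell Ranger 6.0.2 on mm10, per the submitters' processing notes, and the annotation used is not given in the sources used here. Of the 32285 gene identifiers, 32235 (99.8%) are in GENCODE vM21, from which coordinates and lengths were taken.

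Cells had at least 1000 UMIs, 500 genes and at most 20% mitochondrial UMIs. They were clustered with scanpy 1.11.5 (2000 variable genes without the members, 30 principal components, 15 neighbours, Leiden resolution 1, no integration) and named from marker lists. The limit for a mixed cluster (a second score over 0.7 of the best) and the need for markers seen in 10% of cells were set after seeing the data. The doublet caller marked 0 cells and so did not work, and an alternative left out the highest scores.

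UMIs were summed by class and library and scaled by TMM (edgeR 4.0.16, R 4.3.3). The main unit is CPM, and ratios carry exact 95% intervals (scipy 1.17.1). Genes entered a comparison from 20 CPM upwards in the beta-like class, and from 50 CPM in both other endocrine classes. With 1 library per condition no count model was tested. The ratio step was tested on simulated data. Hormone transcripts left out where stated are Ins1, Ins2, Iapp, Gcg, Sst, Ppy, Pyy and Ttr.

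The values named are the 6 highest and 6 lowest members per comparison in beta-like cells, the 3 highest and 3 lowest in alpha-like and delta-like cells, catalytic members, isoform groups, and at most 4 genes of any other list. The values of 1 member are not reported here, though counts and medians include it. The members and lists were chosen with earlier results of these data known. Precision is set by depth, from 1950785 to 77798583 UMIs per endocrine class and library, and no p-values were computed.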

Additional observations from a re-analysis of the deposited data

How the results depend on the processing

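No paired analysis was possible because each condition is 1 library with no replicate number, and for the same reason no replicate could be left out. Values are median log2 ratios of the members, and the cause of each shift was not tested. Of the medians under alternatives, 54 stayed within the limit set, 18 moved and 8 changed sign, and of the ratios of single named genes 377 stayed, 160 moved and 3 changed sign. Without hormone and mitochondrial transcripts, imeglimin at 11.1 and 3.9 mM gave 0.18 and -0.045 in beta-like and 0.057 and 0.011 in alpha-like cells, and 0.16 at 3.9 mM in delta-like cells. Glucose gave -0.16 under vehicle and -0.022 under imeglimin in beta-like cells, and under imeglimin 0.036 in alpha-like and 0.044 in delta-like cells. With plain totals, imeglimin gave 0.32 and -0.20 at 11.1 and 3.9 mM in beta-like cells, and 0.021 and 0.14 at 3.9 mM in alpha-like and delta-like cells. Glucose gave -0.74 and -0.31 under vehicle and imeglimin in beta-like cells, 0.022 under imeglimin in alpha-like and -0.089 under vehicle in delta-like cells, and Atp5j, Sdhc and Uqcr11 turned to -0.32, -0.042 and -0.15 in beta-like cells under vehicle. The mean over cells gave 0.29 and 0.011 for imeglimin and -0.23 and -0.0047 for glucose in beta-like cells. Deep beta-like cells (10000 UMIs or more, no more than 5% mitochondrial), chosen after seeing the data, gave 0.31 for imeglimin at 11.1 mM and -0.27 for glucose under vehicle. For glucose under imeglimin, thinning gave -0.21 in beta-like and 0.06 in delta-like cells, where leaving out the highest doublet scores gave 0.0086.

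Counts of members past 1.5-fold moved as well, and the report gives the shares of all genes for the scalings and the smaller limit. For glucose under vehicle in delta-like cells, 1.34% of all genes were higher with plain totals and 2.21% without hormone and mitochondrial transcripts. No such share is given for the mean over cells, the level filter, deep cells, thinning, the clustering resolution and doublet scores. Those counts cannot be set apart from all genes. With plain totals the median of all genes for glucose under vehicle was itself -0.57. At a smaller limit (log2 0.32), beta-like cells had 47 higher and 3 lower with imeglimin at 11.1 mM, 11 higher at 3.9 mM, 4 higher and 41 lower for glucose under vehicle, and 16 higher and 29 lower under imeglimin, where all genes gave 21.9% and 10.3%, 29.5%, 18.6% and 36.9%, and 25.2% and 38.4%. Without hormone and mitochondrial transcripts the same 4 comparisons had 7 higher and 2 lower, 0 higher, 3 higher and 12 lower, and 13 higher and 5 lower. In alpha-like cells imeglimin then had 3 higher at 11.1 mM and 3 higher and 1 lower at 3.9 mM, and in delta-like cells 5 and 8 higher, with 0 higher for glucose under vehicle and 3 higher and 3 lower under imeglimin. With plain totals, beta-like cells had 7 and 0 higher for imeglimin at 11.1 and 3.9 mM, 0 higher and 52 lower for glucose under vehicle and 24 lower under imeglimin. Alpha-like cells had 3 higher and 1 lower for imeglimin at 3.9 mM, and delta-like cells 6 and 8 higher for imeglimin and 0 higher for glucose under vehicle. The mean over beta-like cells gave 7 and 1 higher for imeglimin, 2 higher and 12 lower for glucose under vehicle, and 13 higher and 6 lower under imeglimin. With no level filter, beta-like cells had 2 and 1 lower for imeglimin at 11.1 and 3.9 mM and 3 higher for glucose under vehicle. Deep cells had 7 higher for imeglimin at 11.1 mM and 2 higher for glucose under vehicle, where thinning and a clustering resolution of 0.5 each had 0. Thinning gave 1 lower for glucose under vehicle in alpha-like cells, and 3 higher under vehicle and 3 higher and 2 lower under imeglimin in delta-like cells, where leaving out doublet scores gave 3 lower.

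The members' share of UMIs was 2.91%, 2.84%, 2.61% and 2.96% in beta-like, 2.26%, 2.27%, 2.21% and 2.33% in alpha-like and 2.29%, 2.59%, 2.37% and 2.76% in delta-like cells without hormone and mitochondrial transcripts. The Cox6a2 share in cells with under 1% insulin UMIs, an alternative added after seeing the data, was 2.21% (vehicle, 3.9 mM) and 8.04% (imeglimin, 11.1 mM) in alpha-like cells, and 33.2% (imeglimin, 3.9 mM), 2.83% (vehicle, 11.1 mM) and 10.9% (imeglimin, 11.1 mM) in delta-like cells. Leaving out doublet scores made it 3.19% in delta-like cells with vehicle at 11.1 mM.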
